A study of Macaca mulatta with 2 samples.

Results

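The 42 genes described here make and pack the male gamete: genes of meiosis, of the piRNA pathway and of the spermatid, listed by name. A probe carried the symbol of 40 of them, with 55 probes among the 41000 of the array, and 13 genes had several probes. No probe was found under the symbols MSH5 and MEI1, which were not analysed here. Of the 40 genes, 22 had a probe that passed the filter on dim signals and entered the test, out of 19615 genes tested.

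The RNA came from primary Sertoli cell cultures of the rhesus macaque, Macaca mulatta. In the tubules of the testis, Sertoli cells surround the developing germ cells and feed them. The pubertal cultures came from males aged 18 to 22 months in which puberty had been started with gonadotropin-releasing hormone (GnRH), given at 0.15 µg/min in 2 min pulses 3 h apart over 4 to 5 weeks. Infant cultures were made from animals younger than 3 months, for which the labels name no GnRH. Both kinds of culture were kept for 24 h with follicle-stimulating hormone at 5 ng/ml and testosterone at 100 nM, so no culture shows a stage without these hormones. Each of 2 arrays set 1 pubertal culture against 1 infant culture of other animals, with the pubertal RNA in the red dye Cy5 on array 1 and in the green dye Cy3 on array 2. The 4 cultures are called pubertal 1 and 2 and infant 1 and 2 after their array.

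In meiosis, chromosomes are cut, paired along a protein scaffold called the synaptonemal complex, and recombined. Small RNAs bound by PIWI proteins, the piRNAs, silence transposons in the same cells. Spermatids then replace histones with transition proteins and protamines, and build an acrosome and a flagellum. Textbook accounts place most of these steps in germ cells, not in Sertoli cells. A culture's RNA is a mixture, so a higher number of germ cells and more RNA per cell cannot be told apart in any value below.

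Macaque RNA was read here with 60-base human probes, whose positions are on the human build hg17. The coordinates of 17 of the 55 member probes cover more than 1 stretch of the genome, as a probe across a splice junction does, and the other 38 lie in 1 stretch. The probes of SPATA22, SYCP3 and SYCP1 are shown because the results on recombination and the chromosome axis turn on them, and SYCP1's gave different readings. Those of LDHC and AKAP4 are examples of probes well above background in every culture. The probes of STK31, MAEL, TEX14 and RNF17, on which results also turn, are not printed, since they may lie in untranslated sequence. No gene models were used here to check this, for these or for the printed probes. The tested STK31 and TEX14 probes have no forward reading frame free of stop codons, and those of MAEL and RNF17 have 1. Each probe below is printed 5′ to 3′ and has at least 1 forward reading frame with no stop codon.
SPATA22 probe: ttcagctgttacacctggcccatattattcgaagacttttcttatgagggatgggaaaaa
SYCP3 probe: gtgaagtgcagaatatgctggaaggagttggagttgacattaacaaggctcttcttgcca
SYCP1 first probe: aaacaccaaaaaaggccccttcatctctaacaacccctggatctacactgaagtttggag
SYCP1 second probe: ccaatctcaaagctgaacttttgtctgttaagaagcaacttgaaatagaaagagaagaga
LDHC probe: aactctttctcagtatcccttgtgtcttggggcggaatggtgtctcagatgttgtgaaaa
AKAP4 probe: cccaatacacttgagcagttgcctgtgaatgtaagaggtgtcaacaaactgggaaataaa
The SPATA22 probe lies at chr17:3293246-3293305 on the minus strand. The SYCP3 probe is split over chr12:100631264-100633315 on the minus strand. The first SYCP1 probe is split over chr1:115249437-115249590 and the second lies upstream of it at chr1:115201922-115201981, both on the plus strand. The LDHC probe lies at chr11:18429108-18429167 on the plus strand, and the AKAP4 probe at chrX:49658473-49658532 on the minus strand. All positions are on hg17, and no gene models of that build were used here to place them in exons.

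Many members gave little or no signal in these cultures. The number of member probes detected was highest in pubertal 1, and the stages overlapped. Well above background were 36 of the 55 member probes in pubertal 1 (65.5%, Cy5) and 23 in pubertal 2 (41.8%, Cy3), against 22 in infant 1 (40.0%, Cy3) and 27 in infant 2 (49.1%, Cy5). Over all probes the shares were 73.8% in pubertal 1 and 61.4% in pubertal 2, against 59.7% in infant 1 and 70.5% in infant 2. In all 4 cultures the members' share thus lay below that of the array as a whole, and at both stages the Cy5 culture gave more detected probes than the Cy3 culture. By gene, 16 of the 40 members were above background in all 4 cultures with at least 1 probe, 14 in some, and 10 in none. Over all genes with a ratio on both arrays, 17996 of 31399 were above background in all 4 cultures. The genes above background in some or in none were not counted over the whole array.

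**Figure D1:**
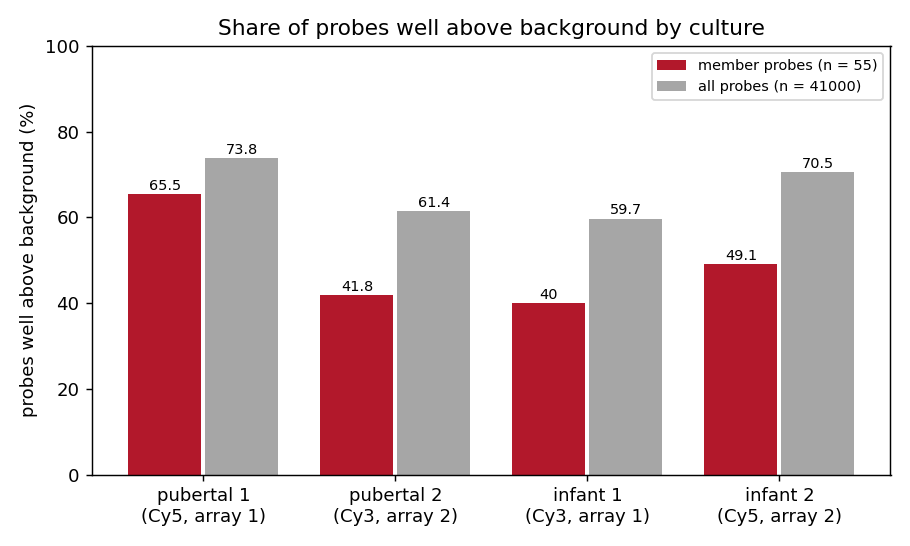
Share of probes well above background (%) in each culture, for the 55 member probes (red) and all 41000 probes (grey), with the dye of each culture. Member shares run from 40.0% to 65.5% and lie below those of all probes in each culture.

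The 10 members with no signal above background in any culture cover nearly every step. They are SPO11, which cuts the DNA to start recombination; DMC1, the meiotic strand exchange protein; MSH4, which stabilises crossovers; SYCE1 of the synaptonemal complex's central element; PIWIL1, a piRNA-binding PIWI protein of late spermatocytes and spermatids; BOLL, an RNA-binding protein of the DAZ family; PGK2, the glycolytic enzyme of spermatocytes and spermatids; TNP1, a transition protein; ODF1, of the outer dense fibres of the tail; and SPATA4. A human probe that binds the macaque transcript badly reads like one that finds no transcript, and this was not tested. Nor was it tested whether a bright probe, such as that of AKAP4, read the named macaque transcript or another one.

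A further 8 members had some signal but no kept probe, which needs a reading well above background in both pubertal or both infant cultures. These were SYCP2 of the chromosome axis, TDRD1 and MOV10L1 of the piRNA pathway, the protamine PRM2, the acrosomal genes ACRV1, CRISP2 and SPATA16, and SPAG6 of the axoneme's central apparatus. Intensities below are the normalised channel values in arbitrary units, after background correction and an added offset of 50, so an unlit probe reads somewhat above 50. All 23 probes of the 18 members without a kept probe read between 56.9 and 160, and those of the 17 other than SPATA16 between 56.9 and 87.1. SPATA16 stood apart on 1 array: it read 79.0 in pubertal 1, against 160 in infant 1, a log2 ratio of -1.01, while array 2 gave 0.23. It was above background in both cultures of array 1 and in neither of array 2.

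Of the 22 members tested, 16 had a ratio above 0 on both arrays, 6 had opposite signs, and none had a ratio below 0 on both. Across all 19615 genes, 23.5% were higher in the pubertal culture on both arrays and 21.9% were lower on both. Ratios are given as log2 of pubertal over infant. Array 1 gave the members a median of 0.42 and array 2 one of 0.41, against 0.05 and -0.03 over all genes. SPATA22 and STK31 were at least 2-fold higher on both arrays and no member was at least 2-fold lower, where the shares over all genes are 0.342% and 0.352%. The filter shapes these counts: SYCP3, TEX11, RNF17, DDX25 and PRM1 passed it through the pubertal cultures, being above background in 1 of the 2 infant cultures, and SPATA18 passed it through the infant cultures. Among the 16 members above background in all 4 cultures, 12 were higher on both arrays (22.4% of all genes so measured). With no filter, 20 of 40 members were higher on both arrays (22.5% of all genes) and 3 were lower (21.5%), with medians of 0.18 and 0.15.

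**Figure D2:**
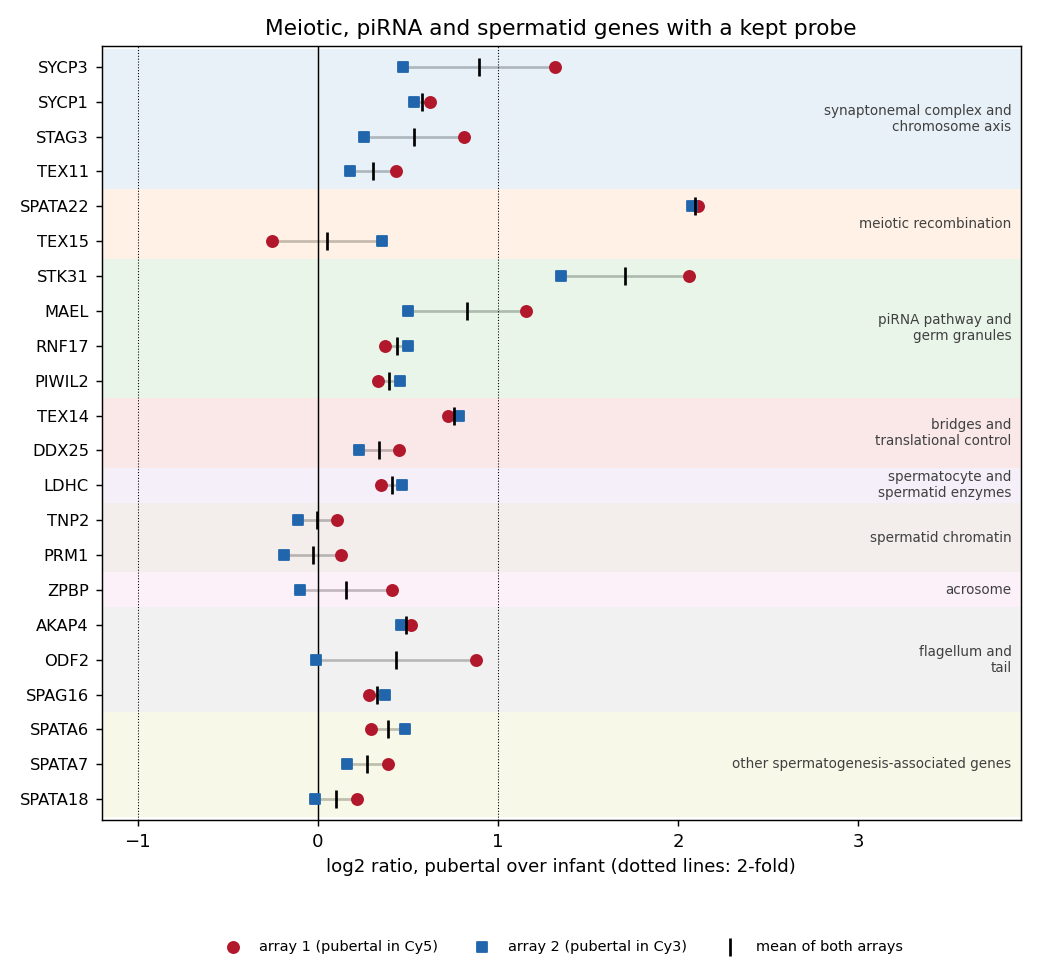
Log2 ratio, pubertal over infant, of each of the 22 members tested, on array 1 (red circles) and array 2 (blue squares), with the mean as a black tick and the members grouped by role. SPATA22 and STK31 lie beyond the dotted 2-fold line on both arrays, and no member lies below 0 on both.

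No member passed the test, and neither did any other gene. With limma over both arrays and Benjamini-Hochberg adjustment over all 19615 genes, 0 genes reached an adjusted p under 0.05 (0%), and the lowest adjusted p was 0.185. At an unadjusted p under 0.05 stood 439 higher genes (2.24%) and 355 lower ones (1.81%). Among the members 5 stood there, all higher: SPATA22, STK31, TEX14, MAEL and SYCP3. Their adjusted p-values in limma ran from 0.955 upwards. Of these 5, SYCP3 passed the filter through the pubertal cultures. In limma on the genes above background in all 4 cultures, 4 of 16 members had an unadjusted p under 0.05. Over all genes in that fit, 713 of 17996 did. With 2 pairs of cultures the precision is low, and the arrays differed widely: over all genes their ratios correlated at r = -0.07 (Spearman's rho -0.10), and the signs of the 2 ratios matched in 45.4% of genes. These correlations run across genes of 1 pair of arrays and describe them only. Errors below are limma's moderated standard errors (SE) of the mean of n = 2 arrays.

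**Figure D3:**
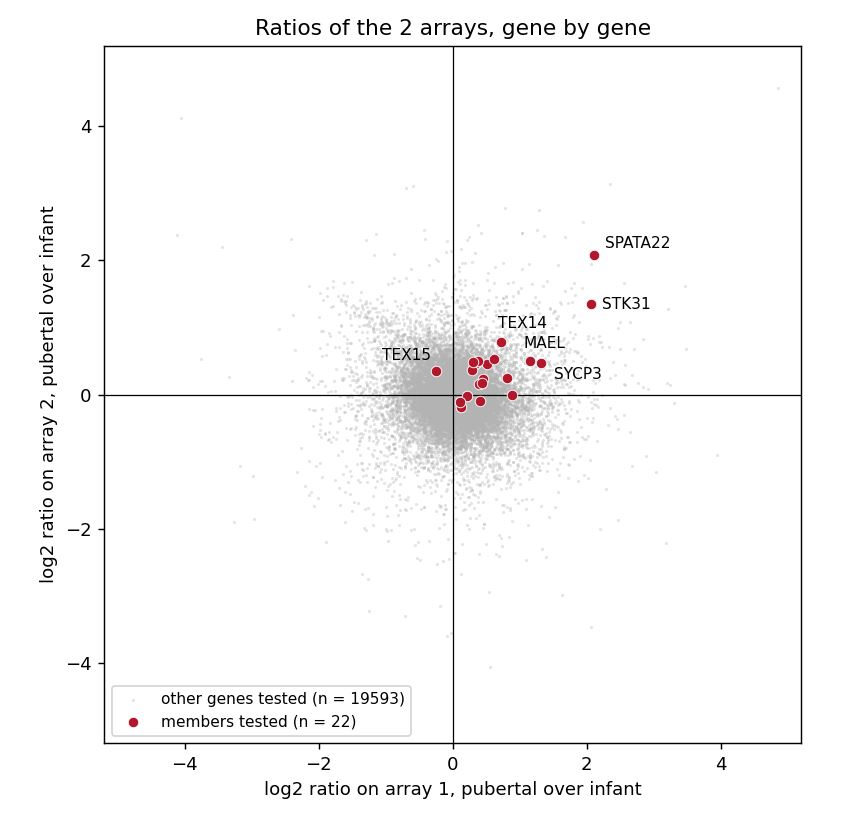
Log2 ratio, pubertal over infant, on array 1 (horizontal) and array 2 (vertical) for the 22 members (red) and the other 19593 genes tested (grey); 1 gene lies outside the range drawn. The cloud of all genes has no slope, and SPATA22 and STK31 lie far out in its upper right.

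The 4 tested genes of the scaffold and chromosome axis read higher in the pubertal culture of each pair, against 23.5% of all genes tested. Of these, SYCP3 and TEX11 passed the filter through the pubertal cultures, and neither was above background in infant 1. SYCP3, the main component of the axial and lateral elements, read 234 in pubertal 1 and 113 in pubertal 2, against 94.0 in infant 1 and 81.6 in infant 2. Both pubertal values lay above both infant values, but the gap was wide on array 1 and small on array 2, with log2 ratios of 1.31 and 0.47. Its mean was 0.89 ± 0.31 (SE, n = 2), or 1.86-fold (limma, unadjusted p = 0.034, adjusted p = 1). SYCP1, the transverse filament that zips the paired chromosomes together, read 233 and 253 in pubertal cultures 1 and 2, against 152 and 174 in infant cultures 1 and 2. Here the arrays gave nearly the same ratio, 0.62 and 0.54, with a mean of 0.58 ± 0.24 (SE, n = 2; limma, unadjusted p = 0.0618). The second SYCP1 probe, printed above, was not above background in any culture and gave ratios of 0.06 and 0.14, so the gene's reading rests on 1 of its probes.

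STAG3, the cohesin subunit used in meiosis, read 776 and 968 in the pubertal cultures, against 443 and 812 in the infant cultures. The groups overlapped, since infant 2 lay above pubertal 1, although each array on its own had the pubertal culture higher (ratios 0.81 and 0.25, mean 0.53 ± 0.27). TEX11, an X-linked gene needed for crossovers in the mouse, was near the detection limit throughout. It read 99.2 and 93.6 in the pubertal cultures, against 73.5 and 82.6 in the infant cultures, with a mean log2 ratio of 0.31 ± 0.24.

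Of the recombination genes tested, SPATA22 had the lowest p of all members and TEX15 had opposite signs on the 2 arrays. SPATA22 encodes a partner of the single-strand DNA-binding protein MEIOB and is needed to repair meiotic breaks in the mouse. It read 811 in pubertal 1 and 695 in pubertal 2, against 188 in infant 1 and 165 in infant 2. The groups were far apart and the arrays gave almost the same ratio with the dyes reversed, 2.11 and 2.08. The mean was 2.09 ± 0.24 (SE, n = 2), or 4.27-fold, with an unadjusted p of 0.000372 and an adjusted p of 0.955 in limma. By mean ratio it stood at rank 8 of 19615 genes and by p at rank 3. TEX15, needed in the mouse for the repair of meiotic breaks, was dim throughout. It read 82.4 and 96.4 in the pubertal cultures, against 98.2 and 75.3 in the infant cultures (ratios -0.25 and 0.36). SPO11, DMC1 and MSH4, the other members of this step with a probe, were those not detected.

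Of 7 listed members of the piRNA pathway and its germ granules, 4 were tested. All 4 were higher on both arrays, against 23.5% of all genes tested, but RNF17 passed the filter through the pubertal cultures. STK31, a tudor-domain protein kinase of the testis, read 671 in pubertal 1 and 525 in pubertal 2, against 161 in infant 1 and 206 in infant 2. The pubertal values were thus far above the infant ones in both pairs. The log2 ratios were 2.06 and 1.35, with a mean of 1.71 ± 0.29 (SE, n = 2), or 3.26-fold (limma, unadjusted p = 0.00217, adjusted p = 0.955). A second STK31 probe, 194 kb away on hg17, was not above background in any culture, with 62.6 and 69.8 in the pubertal cultures and 62.7 and 71.2 in the infant cultures. The 2 probes of this gene therefore disagree, and the higher reading rests on 1 of them.

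MAEL, which acts in piRNA silencing and sits in the granules called nuage, read 279 and 208 in the pubertal cultures, against 125 and 147 in the infant cultures. The groups did not overlap, and the mean log2 ratio was 0.83 ± 0.28 (SE, n = 2), or 1.78-fold (limma, unadjusted p = 0.0332). PIWIL2, the PIWI protein that takes part in making and amplifying piRNAs, read 124 and 149 in the pubertal cultures, against 98.4 and 108 in the infant cultures. Its ratios of 0.33 and 0.46 were alike on both arrays but small (mean 0.40 ± 0.24; limma, unadjusted p = 0.161). RNF17, a tudor-domain protein of male germ cells, read 105 and 113 in the pubertal cultures, against 81.2 and 80.1 in the infant cultures, near the floor. It passed the filter through the pubertal cultures and was not above background in infant 1. Its other 2 probes were not above background. TDRD1 and MOV10L1, a scaffold and an RNA helicase of piRNA production, had no kept probe.

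TEX14, which keeps the bridges between dividing germ cells open, read 379 and 286 in the pubertal cultures, against 229 and 166 in the infant cultures. The groups did not overlap and the arrays gave like ratios of 0.72 and 0.79, a mean of 0.75 ± 0.24 (SE, n = 2), or 1.69-fold (limma, unadjusted p = 0.0261). Its second probe, above background on array 1 alone, gave ratios of 0.08 and 0.03. DDX25, a helicase that controls translation in spermatids of the mouse, read 92.5 and 87.8 in the pubertal cultures, against 67.8 and 74.9 in the infant cultures. It too passed the filter through the pubertal cultures and was not above background in infant 1. LDHC, the lactate dehydrogenase of spermatocytes and sperm, was well above background in every culture. It read 475 and 615 in the pubertal cultures, against 373 and 444 in the infant cultures, with a mean log2 ratio of 0.41 ± 0.24 (SE, n = 2; limma, unadjusted p = 0.15). Its lowest pubertal value was above its highest infant value by little.

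**Figure D4:**
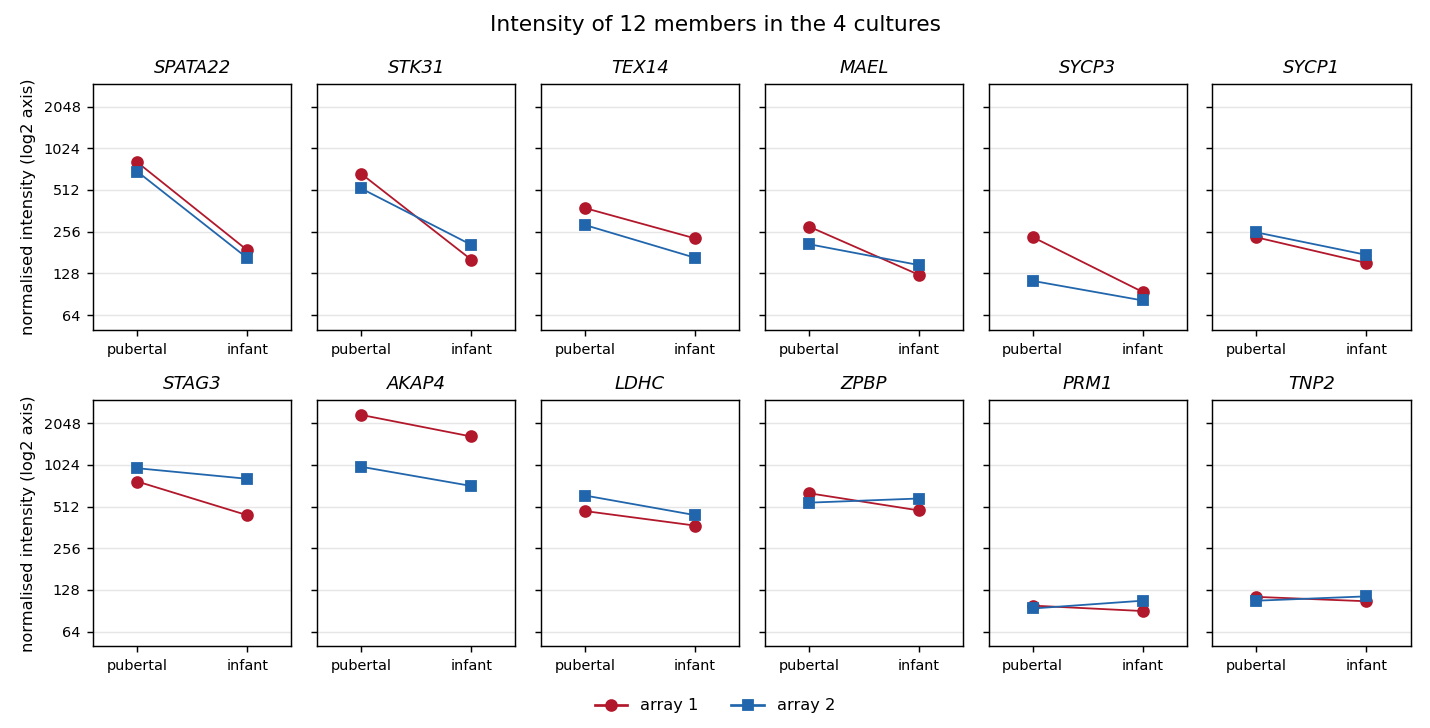
Normalised intensity (log2 axis, arbitrary units) of 12 members in the 4 cultures, pubertal left and infant right, with 1 line per array. The lines of SPATA22 and STK31 slope steeply down to the infant side on both arrays, and PRM1 and TNP2 are nearly level at low intensity.

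Among the genes of the last steps the signs were mixed. Neither tested gene of spermatid chromatin was higher on both arrays. PRM1, a protamine that packs sperm DNA, read 98.6 and 94.0 in the pubertal cultures, against 90.1 and 107 in the infant cultures. TNP2, a transition protein, read 114 and 107 in the pubertal cultures, against 106 and 115 in the infant cultures. Both pairs overlapped, with mean log2 ratios of -0.03 ± 0.25 for PRM1 and -0.003 ± 0.24 for TNP2. Both genes were dim in every culture, where the median of detected probes was 291 to 477. PRM1 was not above background in infant 1. Ratios near 0 at such levels do not establish a lack of change. The probes of PRM1, PRM2 and TNP2 lie within a span of 13.1 kb on chromosome 16 of hg17, in the protamine cluster. TNP2's 2 probes share the 23 bases ACTCCTTGGCTTGTTCCTGCGTG and are not independent readings; the second gave ratios of 0.11 and 0.02.

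ZPBP, an acrosomal protein that binds the egg's coat, was the only acrosomal member tested. It read 639 and 546 in the pubertal cultures, against 480 and 585 in the infant cultures, and the groups overlapped (ratios 0.41 and -0.10, mean 0.16 ± 0.26).

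Among the tail genes, AKAP4, the main protein of the fibrous sheath, differed more between arrays than between stages. It read 2349 in pubertal 1 and 992 in pubertal 2, against 1641 in infant 1 and 721 in infant 2. Within each pair the pubertal culture was higher, with like ratios of 0.52 and 0.46 (mean 0.49 ± 0.24; limma, unadjusted p = 0.0972), but infant 1 lay above pubertal 2. ODF2, which the outer dense fibres share with centrioles of somatic cells, read 462 and 344 in the pubertal cultures, against 252 and 347 in the infant cultures. Array 1 alone set its stages apart, at 0.88 against -0.01 on array 2, and its second probe gave 0.19 and 0.08. SPAG16, a protein of the axoneme's central apparatus, read 1223 and 1071 in the pubertal cultures, against 1005 and 828 in the infant cultures. The groups did not overlap, but the mean log2 ratio was small (0.33 ± 0.24), and the second probe was higher too, with ratios of 0.51 and 0.23.

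Of the members named only for spermatogenesis, SPATA6, SPATA7 and SPATA18 were tested. SPATA6, needed in the mouse to join the sperm head to its tail, read 325 and 478 in the pubertal cultures, against 264 and 342 in the infant cultures, so that infant 2 lay above pubertal 1. SPATA7, also a gene of the photoreceptor's connecting cilium, read 226 and 163 in the pubertal cultures, against 173 and 146 in the infant cultures. SPATA18, which takes part in the upkeep of mitochondria, read 106 and 81.5 in the pubertal cultures, against 91.2 and 82.5 in the infant cultures. The groups overlapped for all 3 genes. None of the mean log2 ratios exceeded that of SPATA6, 0.39 ± 0.24. Over all 22 tested members, both pubertal levels lay above both infant levels in 12 (15.8% of all genes). Both lay below in none (14.1% of all genes), and 10 overlapped. The 12 include SYCP3, TEX11, RNF17 and DDX25, which passed the filter through the pubertal cultures. Among the 16 members above background in all 4 cultures, both pubertal levels lay above both infant levels in 8, and 8 overlapped. No share over all genes is given for that set.

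Other genes of the same pathways, from lists chosen by function, were counted in the same way. Of 20 other piRNA genes 12 were tested; 5 were higher on both arrays, none lower, and the medians were 0.44 and 0.38. DDX43, an RNA helicase, was at least 2-fold higher on both arrays, with log2 ratios of 1.62 and 1.35 and a mean of 1.49 ± 0.25 (SE, n = 2; limma, unadjusted p = 0.00199, adjusted p = 0.955). PIWIL4, a PIWI protein that acts in the nucleus in the mouse, had ratios of 0.90 and 1.67 (limma, unadjusted p = 0.00785). TDRD9 had ratios of 0.72 and 0.49, and FKBP6 had 0.53 and 0.62.

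Of 28 other meiosis genes 15 were tested. On both arrays 5 were higher and none lower, with medians of -0.04 and 0.28 that differ in sign. SMC1B, the meiotic cohesin subunit, had ratios of 0.94 and 0.72 (limma, unadjusted p = 0.0203), with an infant signal above background in 1 of 2 cultures. TEX12, of the central element, had 0.42 and 0.54. EXO1, a nuclease of DNA repair, had -0.01 and 1.46, and the chaperone HSPA2 had 1.16 and -0.08, so each rested on 1 array. Of 74 other spermatid and sperm genes 67 had a probe and 23 were tested, leaving 44 without a kept probe. On both arrays 5 were higher and 4 lower, and none had an unadjusted p under 0.05 in limma. The 4 with the smallest p, CABYR, HSPA1L, PHF7 and TSGA10, had ratios of 0.70 and 0.05, -0.16 and -0.29, -0.24 and -0.20, and 0.93 and -0.26 on arrays 1 and 2.

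The label was checked against marker genes. Of 19 Sertoli cell markers 18 were tested and SHBG had no kept probe. On both arrays 8 were higher in the pubertal culture and 3 lower (CLU, FSHR and HSD17B1), and 7 had opposite signs, with medians of 0.42 and 0.15. The transcription factors SOX9, WT1 and GATA4 were above background in all 4 cultures, and FSHR, the receptor for the hormone in the medium, was near the floor, with 93.9 and 92.3 in the pubertal cultures, against 111 and 104 in the infant cultures. Summed over the 15 markers with no saturated spot, the Sertoli intensity was 44976 and 36346 in the pubertal cultures, against 38040 and 31037 in the infant cultures. Most of that gap came from CST9L, with 6444 and 4571 in the pubertal cultures, against 223 and 191 in the infant cultures. CLU, the brightest of the 15, went the other way, with 17144 and 18319 in the pubertal cultures, against 23040 and 20177 in the infant cultures. Leaving saturated or single dominant genes out of these sums was chosen after their values were seen.

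Markers of other cell types were also present. Of 23 markers of spermatogonia and early germ cells with a probe 20 were tested (TFAP2C, LIN28 and RET had no kept probe), with medians of 0.59 and 0.23. On both arrays 15 were higher and 1 lower; the list shares DDX4 with the other piRNA genes. Their summed intensity was 28851 and 43541 in the pubertal cultures, against 24395 and 20241 in the infant cultures, and most of it came from ITGA6, an integrin that is not confined to germ cells. Without ITGA6 the sums were 8077 and 8058 in the pubertal cultures, against 5115 and 7373 in the infant cultures, so the gap on array 2 was small. The brightest gene left in these sums was UCHL1, which was lower in the pubertal culture on array 2. It read 2173 and 2712 in the pubertal cultures, against 1438 and 3177 in the infant cultures. The germ cell gene DAZL read 289 and 322 in the pubertal cultures, against 127 and 103 in the infant cultures, and the groups did not overlap.

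Of 8 peritubular myoid markers tested 4 were higher on both arrays and 2 lower (medians 0.53 and 0.21). Their summed intensity without the saturated TPM2 was 26896 and 46879 in the pubertal cultures, against 19382 and 56192 in the infant cultures. With TPM2 the sums were 57958 and 100175 in the pubertal cultures, against 35513 and 92440 in the infant cultures. Of 8 macrophage and leukocyte markers tested 4 were higher and 1 lower (medians 0.25 and 0.17), with sums of 2005 and 1251 in the pubertal cultures, against 1003 and 1178 in the infant cultures. Leydig, stromal, endothelial and ciliated markers were counted in the same way. Of 8 Leydig cell markers tested 1 was higher and 2 lower on both arrays (medians 0.34 and -0.38), and LHCGR had no kept probe. The sum over the 4 without saturated spots was 8994 and 3391 in the pubertal cultures, against 21950 and 8669 in the infant cultures. These 4 include the 2 lower ones, CYP17A1 and DLK1. Over all 8 the sums were 136070 and 160416 in the pubertal cultures, against 131613 and 88565 in the infant cultures. The direction of the Leydig sum thus turns on which genes are counted. Of 14 fibroblast and stroma markers 10 were lower and none higher, with sums, without the saturated VIM, of 34302 and 48999 in the pubertal cultures, against 81705 and 76402 in the infant cultures. Of 5 endothelial markers tested 2 were higher and 1 lower, with sums of 993 and 937 in the pubertal cultures, against 814 and 857 in the infant cultures. Of 10 ciliated epithelium markers with a probe 3 were tested, none higher and 1 lower on both arrays, with sums of 1459 and 796 in the pubertal cultures, against 671 and 1174 in the infant cultures. The part of these cell types in the members' readings was not tested.

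The authors' deposited table of log2 ratios holds 14 member probes among its 4848, read here as pubertal over infant on both arrays. It gives SPATA22 2.79 and 2.59, and STK31 2.86 and 1.80, in the authors' deposited table's own values for arrays 1 and 2. In the authors' deposited table TEX14 has 0.88 and 1.23, and PIWIL2 has 1.06 and 0.90. SYCP3, TEX11, RNF17 and DDX25 have a value for array 2 alone in the authors' deposited table (1.62, 1.18, 1.51 and 1.70), each larger than the ratio above. PRM2 and SPATA16 have a value for array 1 alone in the authors' deposited table, -1.46 and -2.49, and TEX15 has -0.73 and 1.57 there. Against the scanner's own ratios the deposited values had slopes of 1.01 on array 1 and 1 on array 2. The means of SPATA22 and STK31 were 2.69 and 2.33 in the deposited table and with the scanner's processed signals alike. The deposited values are thus no separate reading beside the scanner's. How the authors normalised these values, and why some cells are empty, is not given in the sources used here.

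The size of a dim member's ratio moved with the processing. With the scanner's processed signals the mean log2 ratio of SYCP3 was 2.45, that of RNF17 2.14, that of DDX25 1.94 and that of TEX11 1.62, where the values above are 0.89, 0.44, 0.34 and 0.31. These signals differ in dye normalisation as well as in background correction. With the offset of 50 left out and nothing else altered, the means were 1.83, 1.07, 1.20 and 0.94. SPATA22 ranged from 2.09 to 2.69 and STK31 from 1.71 to 2.33 over the alternatives that kept both arrays. PRM1 and TNP2, which were dim too, stayed near 0, from -0.11 to 0.25 and from -0.04 to 0.10. No member passed limma's adjusted test under any of these alternatives, the lowest adjusted p being 0.106, for SPATA22 with no offset.

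**Figure D5:**
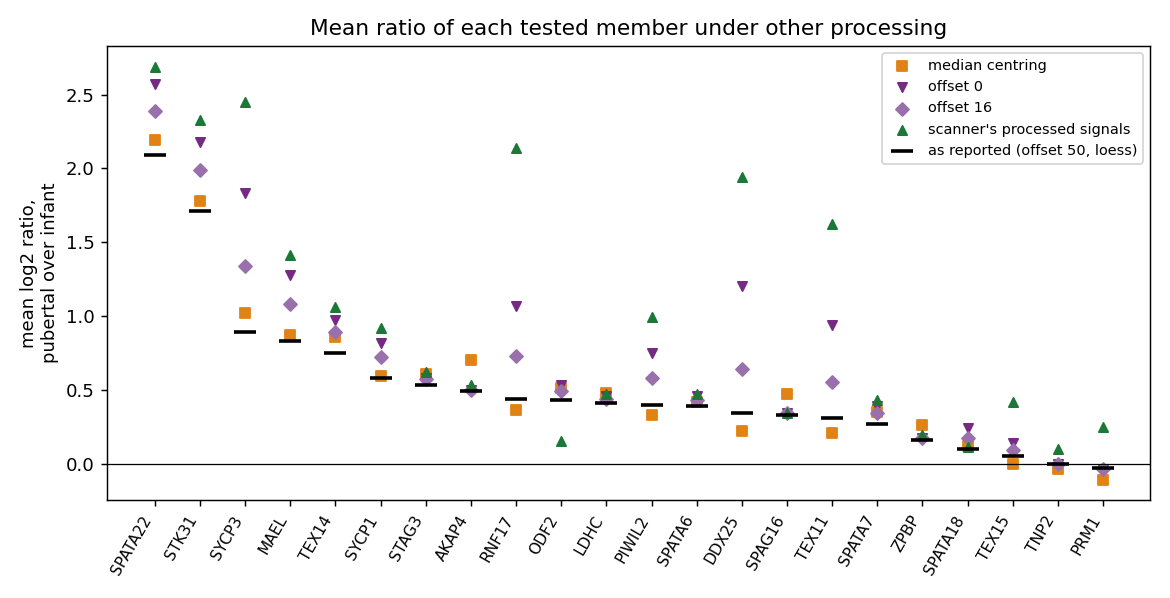
Mean log2 ratio, pubertal over infant, of the 22 tested members as reported (black bars) and under 4 other ways of processing (coloured symbols). The dim genes SYCP3, RNF17, DDX25 and TEX11 spread most, with 2.45 for SYCP3 against 0.89 as reported, and SPATA22 stays above the 2.09 reported under each of them.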

How the data were processed

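The deposited scanner files give mean spot intensity and median local background intensity per channel, with flags for signals well above background, saturation and outliers, per the file headers. They also hold the scanner's processed intensities and log10 ratios of Cy5 over Cy3, per the file headers, and the submitters' processing notes name Agilent Feature Extraction 9.5.1.1 as the software. The authors' deposited table holds log2 ratios. The array was a human design (014850), and both arrays came from 1 slide, so no slide batch could be tested.

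Mean intensities were corrected by normexp (offset 50) and normalised by loess within arrays in limma 3.58.1 (R 4.3.3). The dye labels set the sign, so that a positive ratio means higher in the pubertal culture. The offset makes ratios of dim probes smaller. Control spots had no weight, outlier spots were left out and saturated spots kept; no member was saturated. Channel intensities were then scaled between arrays (Aquantile). Probes were kept where well above background in both pubertal or both infant cultures, and the brightest kept probe stood for a gene. The test was limma's lmFit and eBayes, two-sided, threshold 0.05, tested on simulated data first. The number of arrays limits the precision. Every member was described; of other pathway genes, those 2-fold apart on both arrays and otherwise the 4 with the smallest p per list were named. The members and lists were chosen with earlier results of these data known. Of the 40 member symbols with a probe, 38 are in the RefSeq table of macaque genes.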

Additional observations from a re-analysis of the deposited data

How the results depend on the processing

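Counts and sizes moved with the processing, and the direction of the members' median did not. The median of the members' mean log2 ratio was 0.40 as reported, 0.57 with the scanner's processed signals, 0.56 with no offset, 0.53 with an offset of 16, 0.45 with median centring, 0.10 with no filter on dim probes, 0.42 with the stricter filter, 0.39 with probes tested singly, and 0.41 to 0.42 leaving out either pair. Members at least 2-fold higher on both arrays numbered 2, but 6 with the scanner's signals, 4 with no offset, 1 with median centring, and 2 to 4 leaving out either pair. Members lower on both arrays numbered 0, but 1 with median centring, 3 with no filter, and 1 to 5 on 1 array alone; those higher numbered 16, but 12 with median centring, 12 of 16 with the stricter filter, 20 of 40 with no filter, 16 to 18 under the other alternatives on both arrays, and 17 to 21 on 1 array alone. Over all genes, the share higher on both arrays was 23.5% as reported and 10.8% with median centring. It was 22.4% with the stricter filter, 22.5% with no filter, and 22.8% to 23.7% under the other alternatives on both arrays. The share lower on both arrays was 21.9% as reported, 9.75% with median centring and 21.5% with no filter. No shares over all genes are given here for the 2-fold counts or for 1 array alone. Median centring in place of loess shifted the median of all genes to 0.63 and -0.42 on arrays 1 and 2, beside 0.96 and 0.21 for the members. Over all genes 0 passed limma's test as reported, and 1 passed with no offset, with an offset of 16, with median centring or with an intensity trend. By another detection rule, a mean signal over 2.6 background SDs, 16 members were above background in all 4 cultures, of which 15 were so by the scanner's flag too, PRM1 taking the place of PIWIL2. By that rule 10 were above it in none, 9 of them shared, CRISP2 taking the place of BOLL. The cause of these shifts was not tested. Each ratio sets 1 pubertal against 1 infant culture of the same array, so the reported fit is already paired by array, and no other pairing was tried.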
